A study of Mus musculus with 6 samples.

Results

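The 10 genes described here, *Tbx2*, *Tbx3*, *Tbx4*, *Tbx5*, *Foxf1*, *Tcf21*, *Meox2*, *Twist1*, *Hlx* and *Osr1*, encode transcription factors of the lung mesenchyme. They were taken by symbol from the authors' deposited table of all loci, where they occupied 11 of 24402 loci because *Tcf21* names 2. RNA was sequenced from whole lungs at 12.5 *dpc*, in 6 libraries from C57BL/6 mice, 3 from wild-type embryos (control) and 3 from their Yap-flox/flox; Shh-Cre/+ littermates (*Yap* mutants). In these mutants, Cre recombinase made from the *Shh* locus removes *Yap* from the lung epithelium and leaves the gene intact in the mesenchyme. The Cre insertion also disrupts 1 copy of *Shh*, which the controls keep, so loss of *Yap* and loss of that copy cannot be told apart in this comparison. The mutant lungs branch poorly, and the mutant embryos are smaller than their littermates.

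The lung bud is an epithelial tube surrounded by mesenchyme, and the tissues instruct each other through secreted ligands. The epithelium sends Sonic hedgehog, and the mesenchyme sends ligands such as FGF10 and WNT2, which steer budding. The paper refers to negative regulation between *Shh* and *Fgf10*. The transcription factors described here are part of the mesenchymal side of this exchange. The T-box factors TBX4 and TBX5 are needed for lung budding and for *Fgf10* expression, TBX2 and TBX3 keep the mesenchyme proliferating, and FOXF1 is a forkhead factor that responds to Hedgehog signaling.

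The deposited table gave 1 value per genotype for each locus, read as FPKM (sequenced fragments scaled for the length of the transcript and for the number mapped in the library), which the authors summarised over the 3 libraries. With no value for the single libraries, the spread between embryos and the depth are unknown, and no difference below was tested. A locus was counted as measured when its mean over both genotypes was at least 1 FPKM and both values were above 0, as for 12701 loci. It was called lower or higher when the *Yap* mutant and control values differed by at least 1.5-fold. A negative log2 ratio means a lower value in *Yap* mutant lungs. The median log2 ratio of all measured loci was -0.01, and the middle 50% of them lay between -0.11 and 0.12. *Yap1* had 76.1 FPKM in control lungs and 65.6 FPKM in mutants, which does not by itself check the deletion, since the mesenchyme is included. The genotypes also differed in genes that are not markers of the lung mesenchyme. Cardiac muscle genes were higher in *Yap* mutant lungs. The Y-linked genes *Ddx3y*, *Eif2s3y*, *Kdm5d* and *Uty* together had 0.0306 FPKM in the controls and 36.4 FPKM in mutants. *Xist*, the RNA of X inactivation, had 97.0 and 50.4 FPKM. The make-up of the samples by embryo sex thus differed between the genotypes. The part of embryo sex in the values below was not tested and cannot be told apart from that of genotype.

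Of the 10 genes, *Foxf1* alone was called at its own locus, at 2.01-fold lower in *Yap* mutant lungs. *Tcf21* was 1.46-fold lower and *Tbx3* 1.43-fold higher, both short of the threshold. All 11 loci were measured. Called lower were 2 of them, *Foxf1* and the second of the *Tcf21* loci, and called higher were 0, beside 3.42% of all measured loci called lower and 4.54% called higher. With a threshold at which the larger value exceeds the smaller by 25%, 3 loci were lower and 2 (*Tbx3* and *Hlx*) were higher, beside 6.92% and 9.92% of all measured loci, and the other 6 lay between. Lower in any amount were 3 of the 10 genes (*Foxf1*, *Tcf21* and *Osr1*) and higher were 7, beside 51.8% of all measured loci lower in any amount. *Osr1* lay at 0.00 in place of -0.04 on the log2 scale when values were divided by the sum over all loci. The median over the 11 loci was 0.12.

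**Figure D1:**
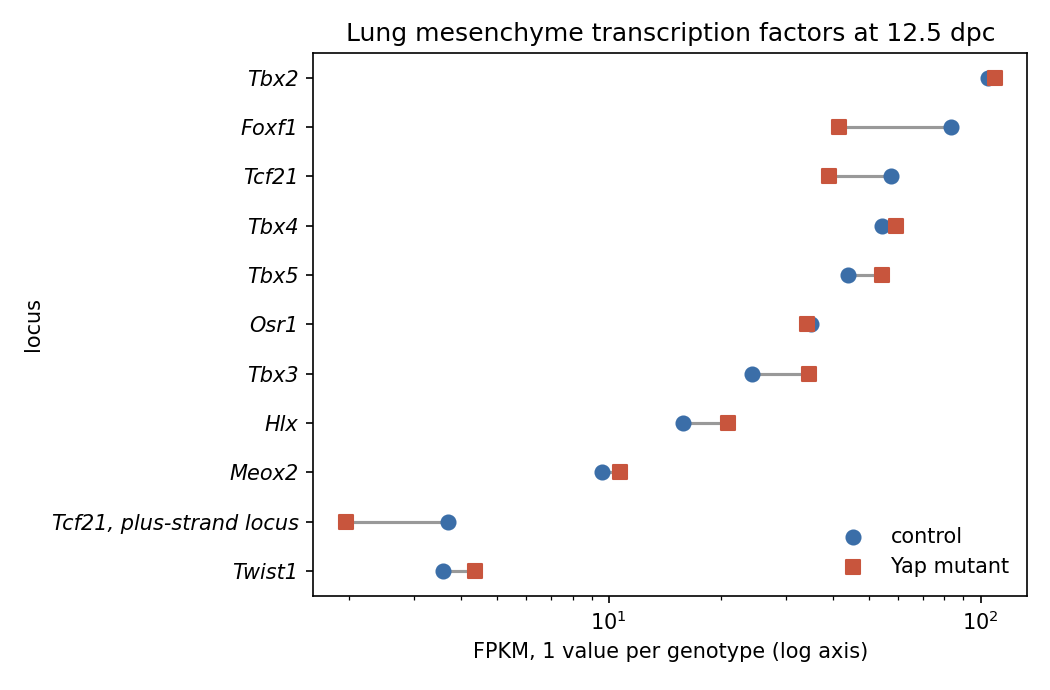
Level of each locus in control (circles) and *Yap* mutant (squares) lungs, in FPKM on a log axis, with 1 value per genotype and therefore no error bars. *Foxf1* and both loci named *Tcf21* are lower in *Yap* mutant lungs, *Tbx3*, *Hlx*, *Tbx5* and *Twist1* are higher, and *Osr1* and *Tbx2* nearly coincide.

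*Foxf1* encodes the forkhead factor that links epithelial Hedgehog signal to mesenchymal gene expression, and it is also used by the developing lung vasculature and smooth muscle. It lies on the plus strand of the mm10 genome, used for all coordinates here, at chr8:121084386-121088154. Its level was 83.5 FPKM in control lungs and 41.6 FPKM in mutants, a 2.01-fold difference. In control lungs it ranked 2 of the 10 genes by level, behind *Tbx2*, and in *Yap* mutant lungs it ranked 4, behind *Tbx2*, *Tbx4* and *Tbx5*. Its level was 1.54 times that of *Tbx4* in control lungs and 0.703 times that of *Tbx4* in *Yap* mutant lungs.

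Of the loci around *Foxf1*, some were also lower. The divergent noncoding RNA *Fendrr*, whose locus ends 0.348 kb before that of *Foxf1* starts, had 14.5 FPKM in control lungs and 7.79 FPKM in mutants, 1.86-fold lower. *Foxl1*, a related forkhead gene of gut and lung mesenchyme that is also known as a Hedgehog response gene, had 7.14 and 1.09 FPKM, 6.53-fold lower. *Foxc2*, which lies between *Foxf1* and *Foxl1* and acts in vessel and lymphatic development, had 3.31 and 2.62 FPKM, 1.26-fold lower and not called. *Mthfsd*, located between *Foxf1* and *Foxc2*, had 11.7 FPKM in both genotypes. Of the 4 measured loci within 100 kb of *Foxf1*, 2 were called lower. The ratio of *Foxf1* to *Fendrr* was 5.77 in control and 5.34 in *Yap* mutant lungs. *Foxf2*, the closest relative of *Foxf1* elsewhere in the genome, had 23.1 and 18.8 FPKM, a log2 ratio of -0.30.

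**Figure D2:**
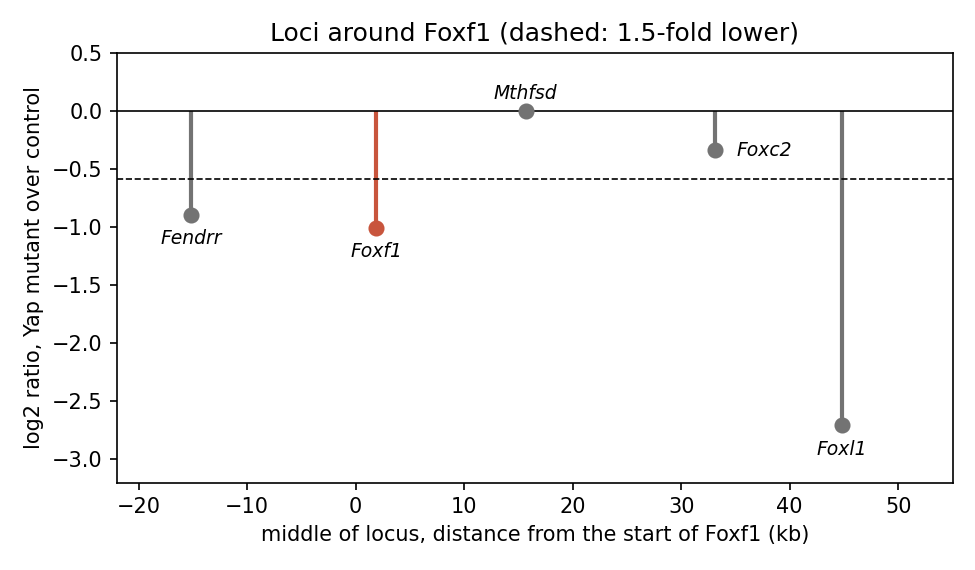
Log2 ratio of *Yap* mutant over control for *Foxf1* and the 4 measured loci within 100 kb of it, by the distance of the middle of each locus from the start of *Foxf1* in kb. *Fendrr*, *Foxf1* and *Foxl1* lie below the dashed line at 1.5-fold lower, *Foxc2* lies above it, and *Mthfsd* lies at 0.

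Genes of the Hedgehog pathway, the known input to *Foxf1*, were lower in the same lungs. Of the 6 genes listed for it, 5 were called lower and 0 higher, with a median log2 ratio of -1.91. *Ptch1*, the receptor whose transcription follows pathway activity, had 44.8 FPKM in control lungs and 12.6 FPKM in mutants. *Gli1*, a transcriptional effector and target, had 36.7 and 18.0 FPKM, a 2.04-fold difference close to that of *Foxf1*. *Hhip*, a secreted inhibitor induced by the pathway, had 11.2 and 1.68 FPKM. *Shh* itself had 15.6 and 2.31 FPKM, in mutants that carry 1 disrupted copy of it. *Smo*, the signal transducer, which is not known as a target, had 80.3 and 72.8 FPKM. Smooth muscle genes were lower too. Of 7 listed markers 5 were called lower and 1 (*Des*) higher, and their summed level was 288.9 FPKM in control lungs and 147.8 FPKM in mutants. The part of a change in smooth muscle in the lower *Foxf1* value was not tested. In whole-lung RNA, fewer cells of a type and less RNA per cell cannot be told apart.

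*Tcf21* (also called *Pod1*) encodes a basic helix-loop-helix factor that marks lung, kidney and epicardial mesenchyme and without which lungs stay small. Its locus on the minus strand of chr10:22814986-22823834 had 57.4 FPKM in control lungs and 39.2 FPKM in mutants, a log2 ratio of -0.55. The table lists a second locus named *Tcf21* with the same ends. The loci are numbered strand by strand: all 86 single-symbol loci within 50 numbers of the first lie on the minus strand, that of *Tcf21*, and all 90 around the second lie on the plus strand. GENCODE M21 annotates a noncoding gene, *Gm10824*, on that plus strand across *Tcf21*. The plus-strand locus had 3.70 FPKM in control lungs and 1.96 FPKM in mutants, 1.89-fold lower. Both loci named *Tcf21* were lower, and the second had the lower level in each genotype. Its strand is inferred from the numbering alone. Whether fragments were counted by strand is not given in the sources used here, so the loci may share reads. The flanking gene *Tbpl1*, a TATA-binding protein relative, had 26.9 and 25.0 FPKM, and *Slc2a12*, a glucose transporter gene, had 1.02 and 1.64 FPKM, which was called higher.

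Promoter sequences were at hand for 5 of the 10 genes (*Tcf21*, *Hlx*, *Tbx4*, *Twist1* and *Meox2*) in the RefSeq table for GRCm38.p6, each covering 250 bases before and 50 after an annotated start. Those of *Tcf21* and *Hlx* are shown because these had the largest lower and the largest higher ratio among the 5, with lower case before the start and capitals from the start on. Both read in the direction of the gene, on the minus strand of chr10:22820094-22820393 for *Tcf21* and of chr1:184732444-184732743 for *Hlx*.

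Tcf21: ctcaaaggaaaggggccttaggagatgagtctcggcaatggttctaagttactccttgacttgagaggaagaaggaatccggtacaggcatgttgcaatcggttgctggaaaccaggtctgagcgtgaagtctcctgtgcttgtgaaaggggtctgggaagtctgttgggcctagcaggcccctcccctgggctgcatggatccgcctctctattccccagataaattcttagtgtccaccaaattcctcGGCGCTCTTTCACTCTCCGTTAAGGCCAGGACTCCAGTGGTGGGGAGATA

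Hlx: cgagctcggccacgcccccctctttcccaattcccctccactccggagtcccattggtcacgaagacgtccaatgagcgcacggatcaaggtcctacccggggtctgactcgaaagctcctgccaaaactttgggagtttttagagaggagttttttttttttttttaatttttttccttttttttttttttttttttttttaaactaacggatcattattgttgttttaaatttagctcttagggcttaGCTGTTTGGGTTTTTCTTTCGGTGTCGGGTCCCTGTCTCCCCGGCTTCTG

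The *Tcf21* window had a GC content of 53.3% and 8 CpG dinucleotides, and the *Hlx* window, which holds long runs of T, had 44.3% and 14, beside medians of 52.7% and 7 over 32851 promoters. The window of *Twist1* was the richest, at 66.0% and 27 CpG. Each of 4 motifs was searched for on both strands. The TEAD motif GGAATG, through which YAP reaches DNA, was in 14.7% of all promoters. The GLI motif GACCACCCA was in 0.253%, the T-box motif AGGTGTGA in 1.28% and the forkhead motif TGTTTAC in 3.65%. None of these was in any of the 5 member windows (0 of 5 for each), which says only that these letters are not in these 300 bases. The *Tbx4* window, chr11:85896515-85896814, lies inside the gene, which starts at 85886422 in GENCODE M21, so it does not cover that start.

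The T-box members were level or higher in *Yap* mutant lungs, and none of the 4 was called. *Tbx2*, which with *Tbx3* represses cell cycle inhibitors in the mesenchyme, lies on the plus strand of chr11:85832615-85843320. It had the highest level of the 10 genes, 105.0 FPKM in control lungs and 109.4 FPKM in mutants (log2 ratio 0.06), and only 5.83% of measured loci had a control level as high. Its neighbor *Tbx4*, at chr11:85885981-85916097, had 54.3 and 59.2 FPKM (log2 ratio 0.12). On chromosome 5, *Tbx3* (chr5:119639993-119684698) had 24.3 FPKM in control lungs and 34.6 FPKM in mutants, a log2 ratio of 0.51, the largest among the members that were higher. The locus given for *Tbx3* begins 30.7 kb before the gene in GENCODE M21, so its value may hold more than *Tbx3*. *Tbx5*, which follows it at chr5:119832782-119885218 and is essential for both lung and heart formation, had 43.9 and 54.2 FPKM (log2 ratio 0.30). The pair on chromosome 5 thus had larger ratios than the pair on chromosome 11. *Tbx2* had 4.32 times the level of *Tbx3* in control lungs and 3.16 times in *Yap* mutant lungs, while *Tbx4* and *Tbx5* stood at 1.24 to 1 and 1.09 to 1.

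Together the 4 T-box members came to 227.5 FPKM in the controls and 257.5 FPKM in mutants, which was 52.6% and 63.0% of the summed level of the 10 genes. The share of *Foxf1* was 19.3% in control and 10.2% in *Yap* mutant lungs, and that of *Tcf21* was 13.3% and 9.61%. The sum of all 10 was 432.4 and 408.4 FPKM. A share depends on the other genes too, and those of all genes but *Foxf1* and *Tcf21* were larger in mutants. That of *Osr1* was 8.11% and 8.34%, although its level was slightly lower in mutants.

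**Figure D3:**
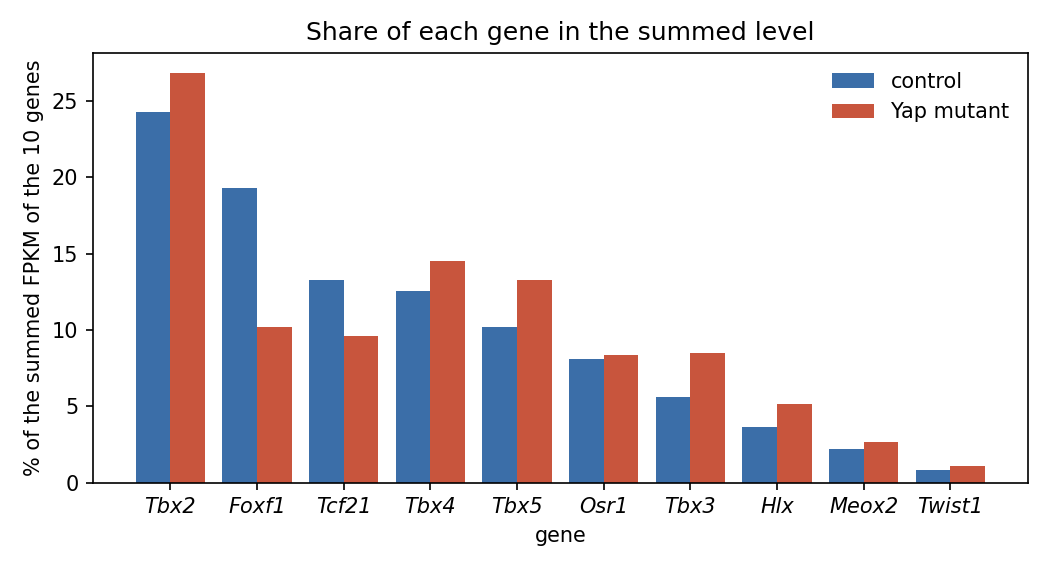
Share of each gene in the summed FPKM of the 10 genes, in percent, for control and *Yap* mutant lungs, with the plus-strand locus at *Tcf21* left out. *Foxf1* makes up 19.3% in control and 10.2% in *Yap* mutant lungs, and the share of *Tcf21* is also smaller there. The shares of all the other genes, those of *Tbx2*, *Tbx3*, *Tbx4* and *Tbx5* among them, are larger in *Yap* mutant lungs.

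Some of the T-box genes also serve the heart, and heart markers were higher in the mutant samples. All 9 measured genes of 10 listed for cardiac muscle were called higher, with a summed level of 120.7 FPKM in control lungs and 884.4 FPKM in mutants. *Nppa*, an atrial peptide gene, had 0.581 and 57.9 FPKM, and *Myh6*, an atrial myosin gene, had 4.39 and 60.2 FPKM. Of the other 13 T-box genes, 4 were measured. *Tbx20*, a cardiac regulator, was 5.03-fold higher (1.18 and 5.92 FPKM), and *Tbx18*, found in epicardium and visceral mesenchyme, was 2.40-fold higher (2.65 and 6.36 FPKM). *Tbx1*, a factor of the pharynx whose expression can follow Hedgehog signal, was 9.51-fold lower (11.7 and 1.23 FPKM), and *Mga* had 9.19 and 11.1 FPKM. The part of heart tissue in the higher values of *Tbx5*, *Tbx3* and *Tbx2* was not tested.

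The remaining factors had ratios between 0.97 and 1.32. *Hlx*, a homeobox gene of visceral mesenchyme needed for liver and gut growth (chr1:184727145-184732493, minus strand), had 15.8 FPKM in control lungs and 20.9 FPKM in mutants (log2 ratio 0.40). *Osr1*, a zinc finger factor of early foregut and lung mesenchyme (chr12:9574442-9581500), had 35.1 and 34.1 FPKM, and *Meox2*, a homeobox factor of somites and vessel wall (chr12:37108546-37179528), had 9.57 and 10.7 FPKM. Of the member loci, only *Tbx2* and *Osr1* lay within the middle 50% of all measured loci by log2 ratio. *Twist1*, a basic helix-loop-helix factor that maintains a mesenchymal state (chr12:33957671-33959831), was the lowest of the 10 genes, at 3.57 and 4.38 FPKM, and 80.7% of measured loci had a control level at least as high. Its neighbor *Hdac9* had 1.39 and 1.85 FPKM. By level, *Osr1* and *Tbx3* exchanged places between the genotypes and the order of *Hlx*, *Meox2* and *Twist1* was the same in both. Without values per library, it cannot be said which neighbors in that order differ beyond their spread.

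**Figure D4:**
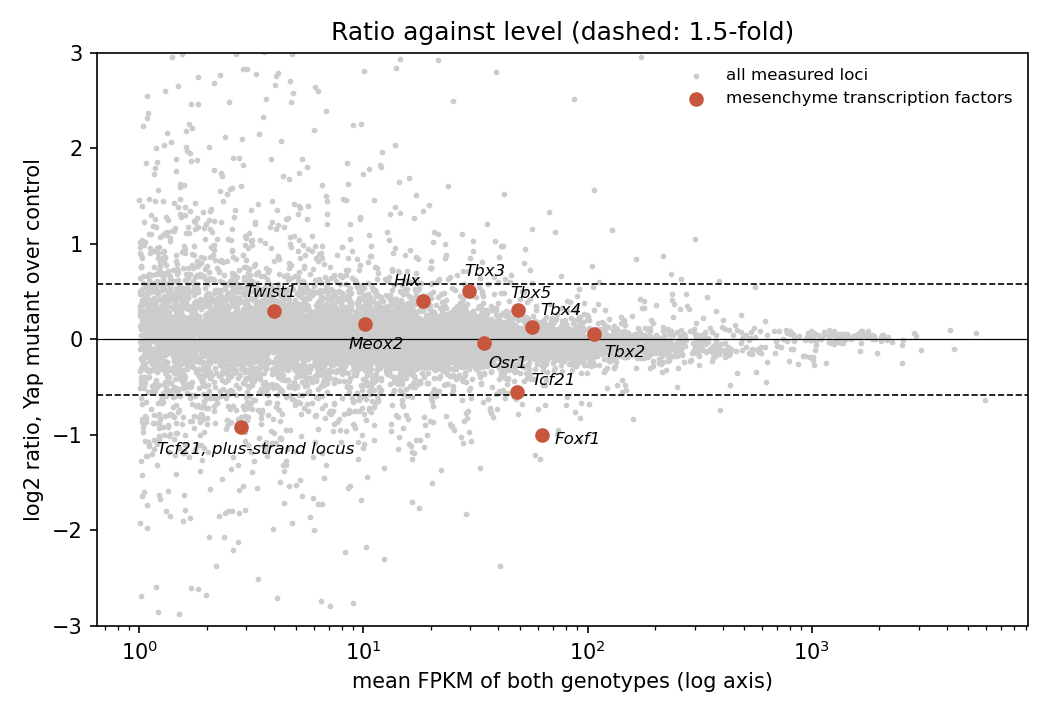
Log2 ratio of *Yap* mutant over control against the mean FPKM of both genotypes on a log axis, for all 12701 measured loci (grey, with 57 beyond the ends of the vertical axis not drawn) and the 11 member loci (red). *Foxf1* and the plus-strand *Tcf21* locus lie below the dashed line at 1.5-fold lower, *Tcf21* lies just above it, and no member lies above the upper line.

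Of *Twist2*, *Meox1*, *Osr2* and *Msc*, relatives of these factors, only *Twist2* lay in the other direction from its member. *Osr1* itself was nearly level. *Twist2*, the relative of *Twist1*, had 20.1 FPKM in control lungs and 11.3 FPKM in mutants, 1.78-fold lower, so that its level was 5.63 times that of *Twist1* in control and 2.58 times in *Yap* mutant lungs. *Meox1* was 2.41-fold higher (5.67 and 13.7 FPKM), and the ratio of *Meox2* to *Meox1* was 1.69 in control and 0.784 in *Yap* mutant lungs. *Osr2* was 1.77-fold lower (2.37 and 1.34 FPKM). *Msc*, a pharyngeal muscle factor related to *Tcf21*, had 1.49 and 0.237 FPKM, a mean too low to be counted.

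Among 25 other mesenchyme transcription factors, listed with earlier results of these data known, 26 loci of 24 genes were measured. Called lower were 3 of these loci (*Gli1*, *Twist2* and *Osr2*) and called higher were 8, and their median log2 ratio was 0.21. The higher ones included *Prrx1* (12.9 FPKM in control lungs and 28.2 FPKM in mutants) and *Prrx2* (17.0 and 25.9 FPKM), homeobox genes of limb and craniofacial mesenchyme. *Nr2f1*, an orphan nuclear receptor gene, had 27.5 and 54.4 FPKM, and *Lef1*, a WNT effector, had 21.2 and 40.2 FPKM. *Ebf1* and the weaker of the loci named *Hoxb5* were also called higher. Several factors with high levels in this list were not called. *Hoxa5*, which shares its locus with *Hoxa6*, had 106.8 and 132.0 FPKM, *Snai2* had 93.6 and 81.1 FPKM, and the stronger *Hoxb5* locus had 69.6 and 91.7 FPKM.

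Ligands known to depend on the T-box and forkhead factors lay on both sides of the threshold. *Fgf10*, the budding signal downstream of TBX4 and TBX5, was 2.54-fold higher (10.4 FPKM in control lungs and 26.6 FPKM in mutants). By qPCR, the paper also found *Fgf10* higher and *Shh* lower in *Yap* mutant lungs. The part of the T-box factors or of *Shh* in the *Fgf10* value was not tested. *Wnt2* was 1.70-fold lower (46.5 and 27.3 FPKM) and *Wnt5a* 1.94-fold lower (9.68 and 4.98 FPKM), while *Wnt2b* had 7.55 and 7.44 FPKM. *Bmp4* had 22.5 and 33.7 FPKM, just short of the threshold, and *Fgf7* was near 0. Whole-lung RNA does not show which tissue made the *Bmp4* RNA. Of the 5 genes listed as repressed by TBX2 and TBX3, 4 were measured and 0 were called. Among these, *Cdkn1a* and *Cdkn1b*, inhibitors of cyclin-dependent kinases, had log2 ratios of 0.41 and 0.03, and the WNT antagonist genes *Frzb* and *Shisa3* had -0.31 and -0.19.

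Most markers of the mesenchyme as a tissue lay within 1.5-fold. Of 14 listed markers, all measured, 1 was called lower (*Cdh11*, a mesenchymal cadherin, 118.0 and 66.8 FPKM) and 1 higher (*Postn*, a matrix protein gene, 14.9 and 25.0 FPKM). Their median log2 ratio was 0.05, and their summed level was 1931 FPKM in control lungs and 1903 FPKM in mutants. The collagen genes *Col3a1* and *Col1a2* had log2 ratios of -0.02 and 0.04, and *Pdgfra* had 0.02. For mesothelium, 4 of 5 markers were measured and 0 were called, with a median of 0.31 and sums of 57.7 and 70.9 FPKM, and for endothelium 0 of 9 were called, with a median of 0.14. Of 13 epithelial markers 8 were called lower and 1 (*Sftpc*) higher, with a median of -0.63 and sums of 461.6 and 338.9 FPKM. Taken relative to the median of the mesenchyme markers, the log2 ratio of *Tcf21* was -0.60, past the threshold.

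**Figure D5:**
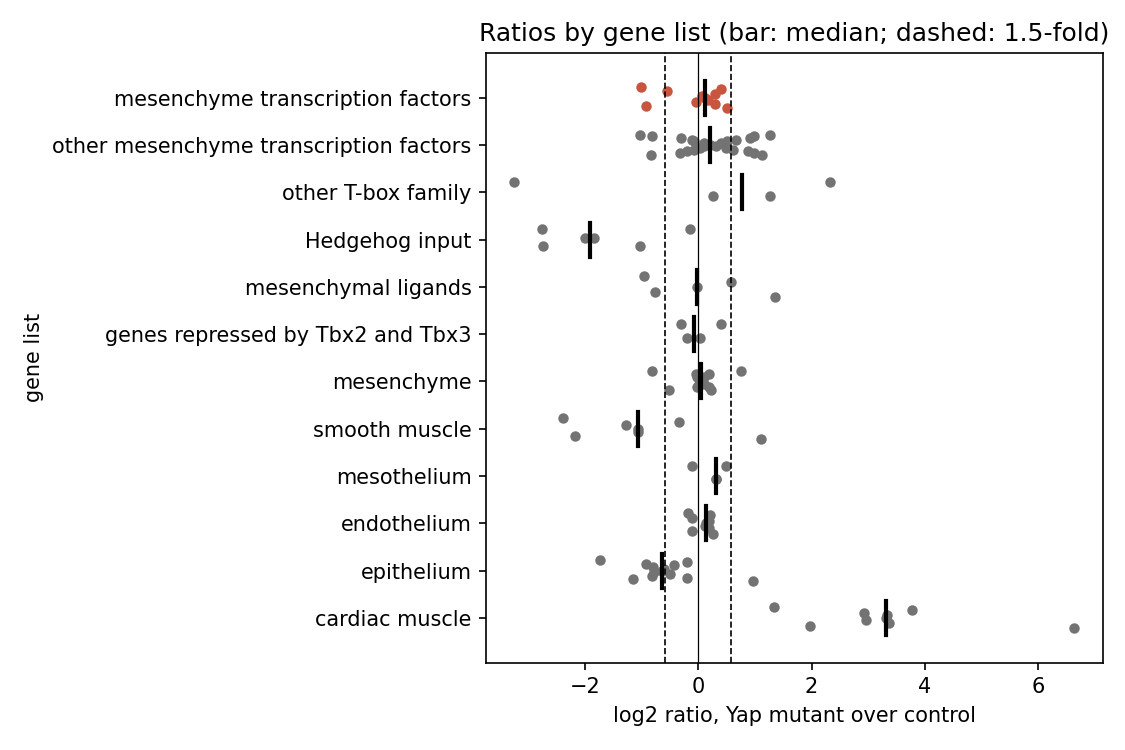
Log2 ratio of *Yap* mutant over control for each measured locus (points) of each gene list, with the median of the list as a bar and 1.5-fold as dashed lines. The mesenchyme transcription factors spread around a median of 0.12, mesenchyme markers around 0.05, while the Hedgehog input and smooth muscle lists lie mostly below and cardiac muscle genes above the dashed lines.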

How the data were processed

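Stranded paired-end libraries from 3 control and 3 *Yap* mutant lung samples were sequenced on HiSeq instruments and compared by the authors on the Maverix platform. The submitters' processing notes name TopHat, Cuffdiff and mm10, without versions. The 2 deposited tables give 1 FPKM value per locus and genotype, a unit inferred from their Cuffdiff layout, together with the authors' own fold changes and p-values, which were not used here. With 1 summarised value per genotype no test could be run on the deposited values, and loci were called at 1.5-fold, among those averaging 1 FPKM or more over the genotypes and above 0 in each. Log2 ratios were computed without a pseudocount. The depth of the libraries is unknown.

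The members and lists were chosen with earlier results of these data known. All members are named, and from the other lists the called genes and up to 4 of the highest mean, and measured neighbors within 100 kb. Some others (such as *Nppa*, *Foxf2*, *Myh6*, *Pdgfra*, *Msc*, the sex genes and *Yap1*) were named after their values were seen, and some genes of these lists are not reported here. The lists were other mesenchyme transcription factors, other T-box genes, Hedgehog input, mesenchymal ligands, genes repressed by TBX2 and TBX3, mesenchyme, epithelium, smooth muscle, mesothelium, endothelium, cardiac muscle, skeletal muscle, cartilage, liver, stomach and gut mesenchyme, erythroid and neural genes. Locus starts were written with 1 added, since 9308 of 21012 loci with a RefSeq symbol then start with that gene and 617 did so before. The calling was run on simulated data with planted changes, which checks the calculation and not the calls reported here. Python 3.11.15, numpy 2.4.6, pandas 2.3.3 and matplotlib 3.10.9 were used.

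The alternatives were thresholds of 25% and 2-fold, pseudocounts of 0.1 and 1 FPKM, no filter or a mean of 5 FPKM or more, 4 rescalings and the values of the second table. Leaving out the plus-strand *Tcf21* locus was added after the data were seen.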

Additional observations from a re-analysis of the deposited data

How the results depend on the processing

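No paired analysis was possible because the tables give 1 value per genotype and none per replicate, and for the same reason no replicate could be left out. *Foxf1* was called lower under every alternative. The member loci other than *Osr1* kept their direction in each alternative that gave them a value, which a mean of 5 FPKM or more did not for *Twist1* and the plus-strand *Tcf21* locus. *Osr1*, at -0.04, was 0.00 when values were divided by the sum over all loci and 0.01 when erythroid, cardiac muscle and liver loci were left out of that sum. Relative to the mesenchyme markers, *Tcf21* was called as well. Member loci called lower were 1 at a fold of 2, with a mean of 5 FPKM or more, and without the plus-strand *Tcf21* locus, and at a threshold of 25% the loci called higher were 2. Over all loci, those called lower and higher were 879 and 1260 at a threshold of 25% and 170 and 275 at a fold of 2. They were 1512 and 2179 without a filter, and 181 and 214 with a mean of 5 FPKM or more. With a pseudocount of 1 FPKM they were 291 and 383. The median of the other T-box genes, 0.77, is short of a fold of 2. The median of that list was 0.63 with a pseudocount of 1 FPKM, 0.085 without a filter, where more low genes entered, and -1.49 with a mean of 5 FPKM or more, where fewer genes remained. The Hedgehog median was -1.70 with a pseudocount of 1 FPKM. The median of the genes repressed by TBX2 and TBX3 was 0.031 both without a filter and with a mean of 5 FPKM or more, against -0.08. The values of the second table changed no member. Of 2395 loci held by both tables, 25 differed by more than 1%. The median log2 ratio of the cardiac muscle list was 2.93 with the second table and 3.31 in the main setting.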

Other observations

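Markers of other tissues near the lung were not all in the same direction. Of 7 liver genes 4 were measured, and 3 of these were called higher in *Yap* mutant lungs, *Ttr* (0.492 FPKM in control lungs and 13.5 FPKM in mutants), *Afp* (5.42 and 22.3 FPKM) and *Apoa1* (1.27 and 3.65 FPKM), while *Alb*, the defining secreted protein of liver, had 1.28 and 1.14 FPKM. Of 7 neural genes 6 were measured and 3 were called lower, *Stmn2* and *Tubb3* among them, with a median log2 ratio of -0.59 over the list. Of 6 cartilage genes 2 were measured, *Col9a1* (9.57 and 5.17 FPKM, called lower) and *Col2a1* (35.1 and 24.7 FPKM, not called). Of the skeletal muscle list only *Myog* was measured (1.51 and 0.826 FPKM, called lower), and of the stomach and gut mesenchyme list only *Barx1* (2.31 and 1.83 FPKM, not called). Of the erythroid list, the globin gene *Hbb-y* had 4020 and 4303 FPKM, and the median log2 ratio was 0.12. Around *Tbx5*, 3 measured loci without a symbol, all on the side of its start, had log2 ratios of 0.49, 0.26 and -0.47, none of them called. Within 100 kb of *Tbx3*, a locus without a symbol had 1.97 and 3.19 FPKM and was called higher, and *AW549542* had 11.5 and 11.7 FPKM. Near *Tbx2* and *Tbx4*, *Bcas3*, *9530048J24Rik* and *2610027K06Rik* had log2 ratios of 0.17, -0.44 and 0.02, and the 1 measured locus near *Hlx*, whose symbol was lost in the table, had 0.24, none of them called.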
